A study of Saccharomyces cerevisiae with 30 samples.

Results

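The effect of deleting *RAD23* on basal gene expression was examined in yeast cells with a SOCS-box mutant Rad7. Untreated psocs Δrad23 cells were measured on 2 arrays and untreated psocs cells on 3 arrays, which the titles identify as 5 of the 30 Affymetrix Yeast S98 arrays (12 groups) of the series. Per the labels and the study's methods, all of these cells were BY4742, a haploid of the alpha mating type, without chromosomal *RAD7*. Per the labels all carried psocs, a pRS313 plasmid with a *HIS3* marker whose *RAD7* has point mutations in the SOCS box, and as a result Rad4 is not ubiquitinated after UV. The psocs Δrad23 cells in addition had *RAD23* replaced by *URA3* (rad23::URA3), a gene that the psocs cells lack. Cultures of both strains were grown at 30°C in minimal medium without histidine, were taken in late log phase and received no UV. The methods describe 1 *rad7*Δ*rad23*Δ parent strain, and since every Δrad23 array carries *URA3*, effects of the marker and of the loss of Rad23 cannot be told apart. The comparison asks what the loss of Rad23 does to transcript levels before any DNA damage, in cells whose Rad7 ligase cannot modify Rad4.

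Rad23 has a pair of known roles. It is the partner that stabilises Rad4, with which it recognises DNA damage in nucleotide excision repair, and it is a shuttle factor that binds ubiquitin chains through its UBA domains and the 26S proteasome through its ubiquitin-like domain. In this second role it shares work with other shuttles such as Dsk2 and Ddi1, and cells in which proteasome function is limited are known to raise proteasome subunit genes through the activator Rpn4.

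Signals are MAS 5.0 intensities in arbitrary units, floored at 8.50 and centred so that all arrays share 1 median, and a change is the mean log2 signal of psocs Δrad23 minus that of psocs cells, with the standard error (SE) from limma. A gene was called at a Benjamini-Hochberg adjusted p under 0.05 over the 4242 genes tested. The labels call the arrays biological replicates but do not say whether they were separate cultures, so a p-value here reflects no more than spread among arrays. For each gene this spread was pooled within groups over all arrays of the series, those after UV included, and then moderated. The SE and p-value of a gene are therefore not set by the untreated arrays compared alone. RNA of whole cultures was measured, so fewer cells with a transcript and less transcript per cell cannot be told apart.

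Psocs array 1 stood apart from the other psocs arrays. On it, 160 of the tested genes read less than 50% of their mean on psocs arrays 2 and 3, against 5 and 26 genes on those arrays by the same count. Of the 160 genes, 102 lie on chromosome IV, which holds 12.7% of the tested genes, and 156 have probe set numbers in 1 stretch of the array design, which holds 1209 of the tested genes. The 2 psocs Δrad23 arrays could only be set against each other, and 23 and 30 genes read less than 50% there, with 4 on chromosome IV each. These counts are not the same measure as those against a mean of 2 arrays. Replicates correlated at 0.980 (Pearson's r across tested genes, which are not independent replicates) for psocs Δrad23, and at 0.964, 0.963 and 0.984 for psocs, where the pair without array 1 is the highest. None of the 160 genes was among those called, but they touch some of the lists described here, whose medians are given with and without this array. The ratio of 3′ to 5′ signal of *ACT1*, a measure of RNA integrity, was 1.26 and 1.20 in psocs Δrad23 and 1.18, 1.19 and 1.11 in psocs cells. The psocs Δrad23 arrays were the higher in this ratio. For 2 other controls the ratio overlapped between the strains. It was 4.65 and 2.46 in psocs Δrad23 against 3.35, 3.22 and 3.13 in psocs cells for *SRB4*. For *SPT15* it was 2.41 and 2.99 against 3.46, 2.36 and 2.55. The part of RNA integrity in the results was not tested. Of the markers of the alpha mating type, 5 of 7 were on the array and all 5 were tested, with *MF(ALPHA)1*, a pheromone gene, at 10893 and 11492 in psocs Δrad23 and at 9530, 9471 and 12254 in psocs cells. Of the a mating type and sporulation genes, 1 of 7 and 1 of 18 passed the filter on dim genes.

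**Figure D1:**
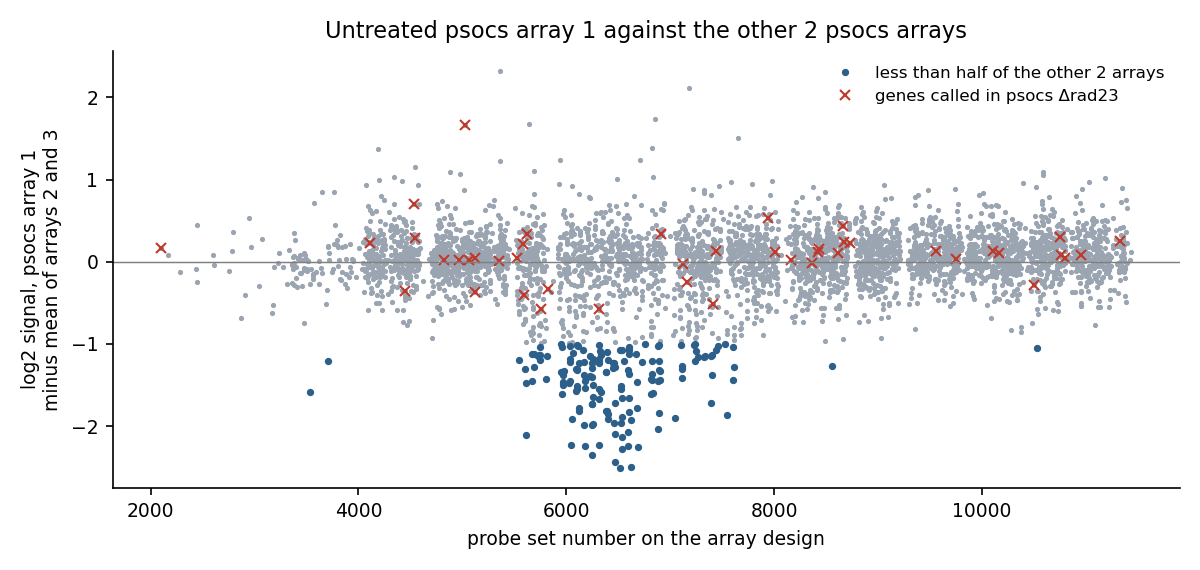
Log2 signal of each tested gene on untreated psocs array 1 minus its mean on psocs arrays 2 and 3 (vertical axis) against the number of its probe set in the array design (horizontal axis). The 160 genes that read less than 50% are in blue, 156 of them in 1 stretch of the design, and the crosses, which mark the genes called in psocs Δrad23, include none of them.

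*RAD23* and *URA3* followed the labels. *RAD23* read 7.95 and 8.36 in psocs Δrad23 cells, both at the floor, against 630, 871 and 1004 in psocs cells, and was at least 101-fold lower (log2 change -6.65 ± 0.19, adjusted p = 6.89e-18). *URA3* read 363 and 341 in psocs Δrad23 and 8.04, 7.89 and 8.84, at the floor, in psocs cells, at least 42.7-fold higher, and was not tested because its mean over all arrays lay under the filter on dim genes. *HIS3*, the plasmid's marker, read 4762 and 4858 in psocs Δrad23 cells, below every psocs array (7734, 7155 and 8559), and fell by 0.70 ± 0.13 on the log2 scale (adjusted p = 0.00794). A further probe set of *HIS3* differed by -0.80, and the call was lost without psocs Δrad23 array 1 (adjusted p = 0.119) or 2 (adjusted p = 0.0740). The other yeast gene on the plasmid, *RAD7*, read 30.2 and 36.0 against 41.5, 41.0 and 50.3. Its groups did not overlap either, but it was not called (-0.42 ± 0.26, adjusted p = 0.496). *RAD7* was dim in both of these strains. On the plasmid with wild-type *RAD7*, pRAD7, it read 303 and 400.4 in pRAD7 Δrad23 and 508, 854 and 533 in pRAD7 cells, above every psocs-plasmid array. This difference in *RAD7* level between the plasmids was not tested. *RAD4*, the gene of Rad23's partner in repair, read 71.1 and 62.5 in psocs Δrad23 and 75.7, 60.6 and 68.1 in psocs cells, a range that overlaps, and was too dim to be tested. *LEU2* and *LYS2*, which BY4742 lacks, were dim in both strains. Of the 3 genes on each side of *RAD23* on chromosome V, *UTR2*, *CYC7*, *UTR4*, *ANP1* and *HYP2* were not called, with changes between 0.02 and 1.00, and *UTR5* was too dim to be tested. *UTR2*, *UTR4* and *ANP1* had their lowest value on psocs array 1.

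**Figure D2:**
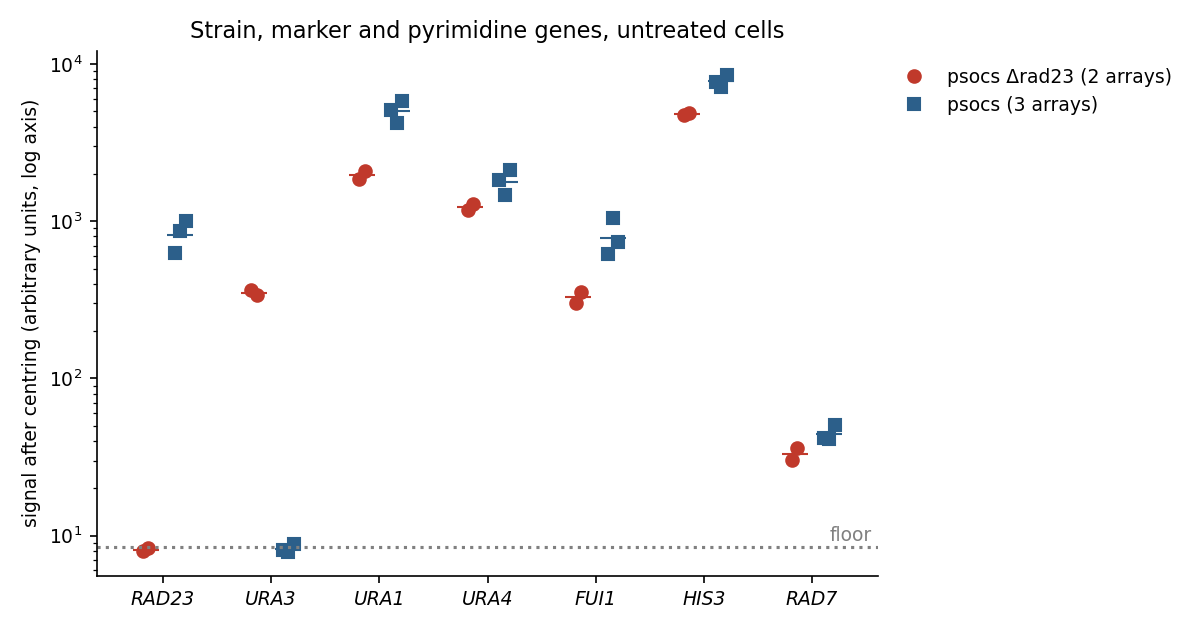
Signal after centring (log axis, arbitrary units) of strain, marker and pyrimidine genes on the 2 psocs Δrad23 arrays (red circles) and the 3 psocs arrays (blue squares). Horizontal lines are means of log2 values and the dotted line is the floor of 8.50, where *RAD23* lies in psocs Δrad23 and *URA3* in psocs cells.

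Few genes passed the test. Limma called 44 of the 4242 genes (1.04%), of which 21 (0.495%) were higher and 23 (0.542%) lower in psocs Δrad23 cells, where an unadjusted p under 0.05 was reached by 565 genes (13.3%). In the values as deposited, without centring, 69 genes were called, 43 higher and 26 lower. Besides *RAD23*, 8 of the higher and 12 of the lower genes differed at least 2-fold. The groups of all 44 called genes did not overlap, but such separation is common with 2 arrays against 3: over all tested genes 17.8% were higher and 12.7% lower without overlap. Most calls needed both psocs Δrad23 arrays, and leaving out either leaves 1 array in that group. Without psocs Δrad23 array 1 or 2 limma called 4 or 6 genes in all, and without psocs array 1, 2 or 3 it called 20, 16 or 40. Of the 44 genes, 4 and 6 were among those called without psocs Δrad23 array 1 or 2, and 19, 16 and 27 without psocs array 1, 2 or 3, although no called gene changed direction. *RAD23* and *URA1* were called in all 5 of these fits, and a further 9 genes in none. A fit to the 5 arrays alone kept 7 of the 44.

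Most proteasome genes lay slightly higher in psocs Δrad23 cells, and few passed the test. Of 34 genes, the subunits of the 20S core and the 19S regulatory particle and the activator gene *RPN4*, all were tested, 33 had a change above 0 (58% of all tested genes did), and the median was 0.42 against 0.05 over all tested genes. Changes ran from -0.07 to 0.88, and 4 genes were called higher and none lower (0.495% and 0.542% of all tested genes). In 26 of the 34 psocs Δrad23 was higher without overlap (17.8% of all tested genes). An unadjusted p under 0.05 was reached by 23 (13.3% of all tested genes, in either direction). Without psocs array 1 the median was 0.41, and without psocs Δrad23 array 1 or 2 it was 0.32 or 0.49.

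The called subunits were *PRE6*, *PRE8* and *PRE10*, of the alpha ring through which substrates enter the core, and *RPT6*, an ATPase of the regulatory particle's base. *PRE10* read 2183 and 1425 in psocs Δrad23 and 1109, 1040 and 1157 in psocs cells (0.68 ± 0.17, adjusted p = 0.0471). *PRE6* read 3018 and 2596 against 1966, 1617 and 2058 (0.58 ± 0.14, adjusted p = 0.0471). In both genes psocs Δrad23 array 1 was the highest of the 5 arrays, and without it the changes were 0.37 for *PRE10* and 0.47 for *PRE6*. *PRE8* read 2048 and 2137 in psocs Δrad23 and 1511, 1371 and 1585 in psocs cells, with the arrays of each strain close together (0.49 ± 0.10, adjusted p = 0.0208). *RPT6* read 2340 and 1979 against 1518, 1391 and 1601 (0.52 ± 0.13, adjusted p = 0.0455). Each of these 4 calls held in 1 of the 5 fits that leave out an array, that without psocs Δrad23 array 2 for *PRE10* (adjusted p = 0.0272) and that without psocs array 3 for the others (adjusted p of 0.0234 to 0.0493). Among subunits just short of the threshold, *RPN7*, of the lid of the regulatory particle, read 1340 and 1248 in psocs Δrad23 and 883, 769 and 1033 in psocs cells (0.54 ± 0.14, adjusted p = 0.0524). *RPN9*, also of the lid, had the highest change in the list, 0.88 ± 0.30, but it read 283 on psocs array 1 against 678 and 883 on the other psocs arrays and 1059 and 981 in psocs Δrad23, and without psocs array 1 its change was 0.40. *RPN4*, the activator of these genes, was the exception in the list, with 408 and 313 in psocs Δrad23 and 449, 322 and 362 in psocs cells (-0.07 ± 0.23, adjusted p = 0.936). It overlapped between the strains.

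Genes of proteasome assembly and adaptors went both ways. Of 15 such genes 14 were tested, with a median of 0.19. Called were 2 higher and 1 lower (0.495% and 0.542% of all tested genes). *ECM29*, whose product tethers the core to the regulatory particle, read 487 and 555 in psocs Δrad23 and 240, 172 and 266 in psocs cells, an increase of 1.23 ± 0.21 (adjusted p = 0.00511). Its call was lost without psocs Δrad23 array 1 (adjusted p = 0.0620) or 2 (adjusted p = 0.0810). This probe set is of a kind whose probes also match other sequences, and the array has 8 probe sets under the name *ECM29*. The one without such a mark and above the floor read 183 and 133 in psocs Δrad23 and 103, 64.3 and 81.4 in psocs cells, again without overlap (difference of means 0.94). The 8 probe sets disagreed, with differences of means from -0.53 to 1.46. Those at -0.53, which was near the floor, and at 0.07 overlapped between the strains. *UBP6*, a deubiquitinase bound to the proteasome, read 1178 and 1106 against 783, 747 and 809 (0.55 ± 0.12, adjusted p = 0.0268) and was still called without psocs array 3 but in no other such fit. *ADD66*, an assembly chaperone of the core also known as Pba2, was the lower one, with 139 and 81.3 in psocs Δrad23 and 268, 268 and 241 in psocs cells (-1.29 ± 0.19, adjusted p = 0.00103). It was not called without psocs Δrad23 array 2 (-0.90, adjusted p = 0.0794). *PBA1*, which encodes the partner of Add66, did not share this, with 291 and 406 in psocs Δrad23 and 357, 360 and 348 in psocs cells (-0.05 ± 0.15), values that overlap.

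Of 32 genes of the other ubiquitin shuttles, Cdc48 and ubiquitin handling, 30 were tested. A change above 0 was found in 26 (58% of all tested genes). The median was 0.27 (0.22 without psocs array 1), and 1 was called higher (0.495% of all tested genes). This was *SHP1*, an adaptor of the segregase Cdc48, with 2465 and 1935 in psocs Δrad23 and 1530, 1285 and 1530 in psocs cells (0.60 ± 0.14, adjusted p = 0.0324), with adjusted p of 0.0450 to 0.508 when 1 array was left out. The shuttle genes themselves were not called: *DDI1* read 294 and 199 against 150, 149 and 174 (0.62 ± 0.17, adjusted p = 0.0831), and *DSK2* 2442 and 2766 against 2159, 1831 and 2270 (0.32 ± 0.12, adjusted p = 0.212). In both, each psocs Δrad23 array was above every psocs array. *UBI4*, the stress-inducible polyubiquitin gene, read 756 and 618 in psocs Δrad23 and 442, 520 and 354 in psocs cells, again without overlap (0.66 ± 0.26, adjusted p = 0.248). *CDC48* read 3610 and 3646 in psocs Δrad23, but its change of 0.77 ± 0.30 rests on 1131 on psocs array 1, beside 2763 and 3084 on arrays 2 and 3, and was 0.31 without that array.

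**Figure D3:**
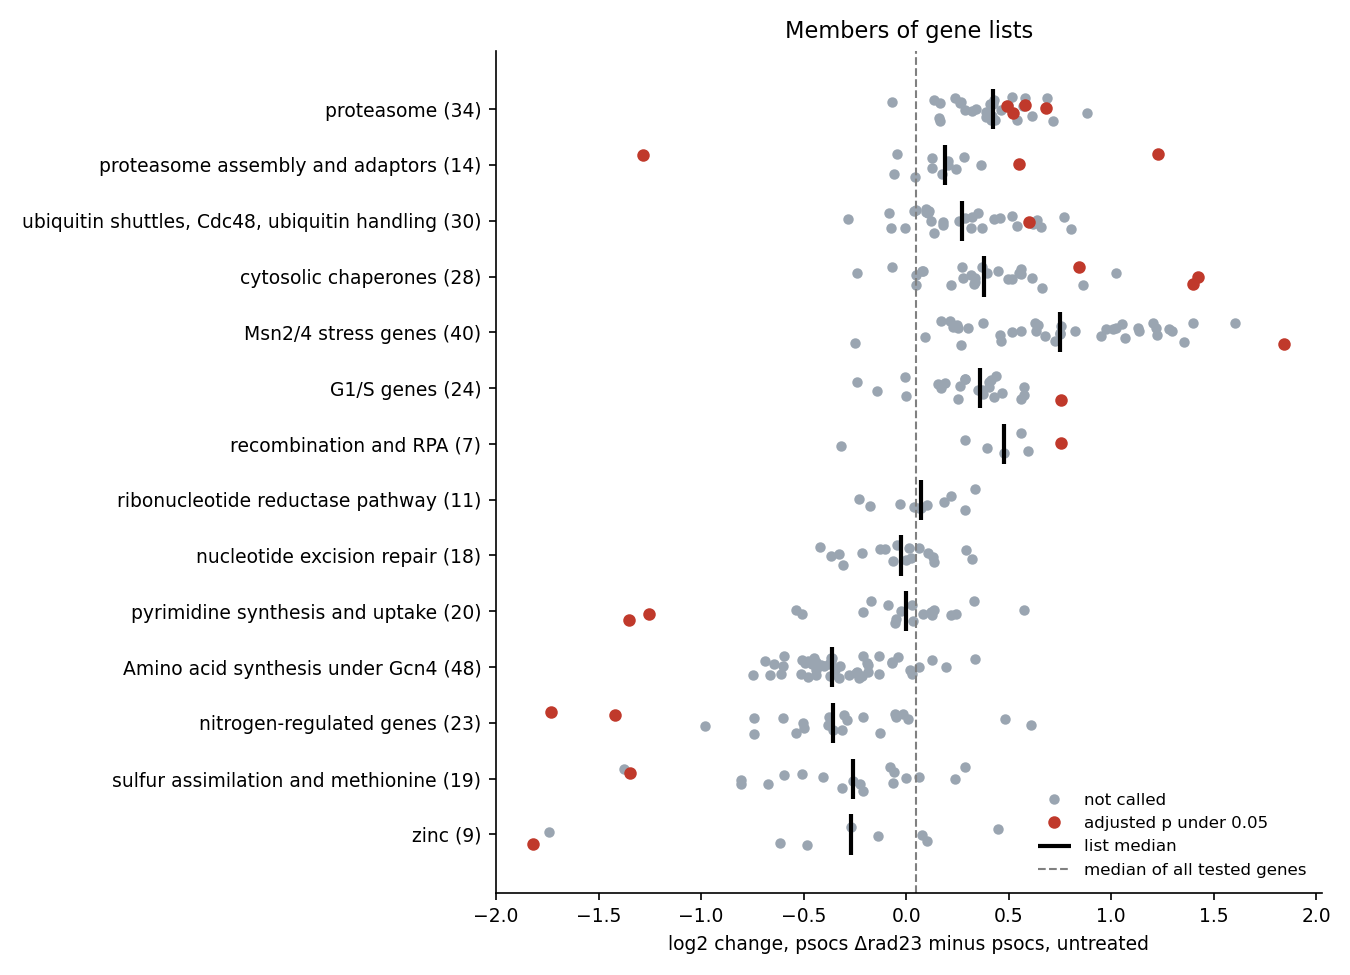
Log2 changes, psocs Δrad23 minus psocs, of the tested members of gene lists (number tested in brackets, *RAD23* left out), with called genes in red and the list median as a black bar. The proteasome (median 0.42) and Msn2/4 stress genes (0.75) lie mostly right of the median of all tested genes (0.05, dashed), and the amino acid synthesis and nitrogen-regulated genes (both -0.36) mostly left of it. The row named cytosolic chaperones also holds mitochondrial ones.

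Chaperone and stress genes were higher in most cases, with few calls. A list of 32 chaperone and heat shock genes was mostly cytosolic. It also held mitochondrial chaperones, such as *HSP60* and *SSC1*, and *HSF1*, a transcription factor gene. Of these 32 genes 28 were tested and 26 had a change above 0 (58% of all tested genes). The median was 0.38 (0.44 without psocs array 1), and 3 were called higher (0.495% of all tested genes). The median was 0.54 without psocs Δrad23 array 1 and 0.24 without array 2. *HSP82*, the inducible Hsp90 gene, read 730 and 985 in psocs Δrad23 and 340, 324 and 303 in psocs cells (1.40 ± 0.29, adjusted p = 0.0190). *CPR6*, a cyclophilin that binds Hsp90, read 1912 and 2455 against 1280, 1097 and 1254 (0.84 ± 0.15, adjusted p = 0.00786). *HSP42*, a small heat shock protein that gathers misfolded proteins, read 296 and 237 in psocs Δrad23 and 75.7, 100.4 and 127 in psocs cells (1.42 ± 0.30, adjusted p = 0.0208). In these 3 genes no array of one strain overlapped the other. All 3 calls were lost without psocs Δrad23 array 2 (adjusted p of 0.0810 to 0.163), that of *HSP82* also without psocs Δrad23 array 1 or psocs array 2, and that of *HSP42* in every fit but that without psocs array 3. The probe set of *HSP82* has an incomplete set of probes, and how far its near copy *HSC82* binds it was not tested. *HSC82* itself read 7756 and 10633 in psocs Δrad23 and 7076, 6972 and 8661 in psocs cells (0.27 ± 0.13, adjusted p = 0.381). *HSP104*, the disaggregase, was not called (396 and 331 against 221, 135 and 189, 1.02 ± 0.30, adjusted p = 0.11).

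The 42 stress genes of the activators Msn2 and Msn4 had the highest list median, 0.75, or 1.00 without psocs array 1. Of the 40 tested, 39 had a change above 0 (58% of all tested genes) and 24 were higher without overlap (17.8%). An unadjusted p under 0.05 was reached by 19 (13.3%, in either direction), and 1 was called higher (0.495%). This was *PNC1*, the nicotinamidase of NAD salvage, which read 1356 and 996 in psocs Δrad23 and 700, 256 and 189 in psocs cells (1.84 ± 0.42, adjusted p = 0.0303). The psocs arrays were themselves far apart, and of the fits that leave out 1 array *PNC1* was called in that without psocs array 1 alone (adjusted p = 0.00150, against 0.138 and 0.0965 without psocs array 2 or 3). The same spread held for other members: the hexokinase gene *HXK1* read 390 and 498 in psocs Δrad23 and 206, 166 and 89.3 in psocs cells (1.60 ± 0.66, adjusted p = 0.264), and *TSL1*, of trehalose synthesis, 281 and 230 against 156, 88.3 and 80.5 (1.30 ± 0.43, adjusted p = 0.167). Over the 40 tested genes the median signal per array was 216 and 233 in psocs Δrad23 and 143, 110.1 and 91.8 in psocs cells, so that the groups did not overlap.

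Few genes of the DNA damage response passed the test. *MAG1*, the 3-methyladenine glycosylase of base excision repair, read 94.5 and 60.2 in psocs Δrad23 and 29.3, 25.8 and 24.8 in psocs cells, an increase of 1.51 ± 0.22 (adjusted p = 0.000756) without overlap. It was dim in these cells, with a mean log2 signal of 6.24 in psocs Δrad23 and 4.73 in psocs cells. Both means lie under the filter's cutoff of 6.53, which *MAG1* passed on its mean over all arrays, those after UV included. It lost its call without psocs Δrad23 array 1 (1.18, adjusted p = 0.0764). Of the 20 damage-inducible genes that include it 11 were tested, and *RAD23* was the other call (1.04% of all tested genes were called). *DDI1*, named above, is the divergent neighbour of *MAG1* and shares its upstream region. *RFA1*, the large subunit of the single-strand binding protein RPA, read 658 and 592 in psocs Δrad23 and 416, 352 and 346 in psocs cells (0.75 ± 0.18, adjusted p = 0.0471). The other RPA subunits lay in the same direction without overlap and were not called, *RFA2* with 720 and 555 against 479, 406 and 405 (0.56 ± 0.19, adjusted p = 0.169) and *RFA3* with 775 and 857 against 595, 567 and 595 (0.48 ± 0.16, adjusted p = 0.167). *RFA1* was called in none of the fits that leave out 1 array (adjusted p of 0.0553 to 0.458).

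The ribonucleotide reductase genes and their regulators, which the study centres on, gave no calls in untreated cells. Of 12 genes 11 were tested, with a median change of 0.07. Since 1.04% of all tested genes were called, the lack of a call in so short a list says little about its members. *RNR1*, the large subunit, read 1238 and 1509 in psocs Δrad23 and 1207, 1163 and 1005 in psocs cells (0.29 ± 0.17, adjusted p = 0.461), the psocs Δrad23 arrays being the higher ones. *RNR2*, *RNR3* and *RNR4* had changes of 0.06 ± 0.17, -0.23 ± 0.24 (with probes that also match other sequences) and 0.19 ± 0.11. The kinase gene *DUN1* read 99.2 and 95.7 in psocs Δrad23 and 94.0, 75.3 and 82.7 in psocs cells (0.22 ± 0.17, adjusted p = 0.618), without overlap but close together. *RFX1*, the gene of the repressor Crt1, had a change of 0.04 ± 0.18, the inhibitor genes *SML1* and *HUG1* -0.03 ± 0.13 and 0.34 ± 0.25, and the checkpoint kinase genes *TEL1* and *CHK1* 0.13 ± 0.17 and 0.31 ± 0.22. *RAD53*, *MEC1*, *RAD9* and *PDS1* were too dim to be tested, and *RAD53* read 34.4 and 30.4 in psocs Δrad23 and 37.6, 27.7 and 24.4 in psocs cells, a range that overlaps. *DDR2*, a stress gene, read 499.6 and 653 against 390, 360 and 294 (0.73 ± 0.57, adjusted p = 0.622), *GPG1* had a change of -0.20 ± 0.45, and *ACT1* one of -0.04 ± 0.14. Of 26 nucleotide excision repair genes 18 were tested and none was called (median -0.02), where 1.04% of all tested genes were. The G1/S list had 24 tested genes with a median of 0.36 (0.40 without psocs array 1). Of these 20 were above 0 (58% of all tested genes), and *RFA1* was the call (0.495% of all tested genes were called higher). On the pRAD7 plasmid 8 genes of that list were called higher (0.636% of all tested genes), with a median of 0.64. There *RNR1* read 1955 and 1630 in pRAD7 Δrad23 and 1039, 1138 and 1209 in pRAD7 cells (0.66 ± 0.17, adjusted p = 0.0492). The effects on *RNR1* did not pass the test of a difference between plasmids (-0.38 ± 0.24, unadjusted p = 0.122).

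Of the lower genes, *URA1* was the most stable. *URA1* encodes dihydroorotate dehydrogenase of pyrimidine synthesis, and *URA3*, which these cells gain with the deletion, encodes the last enzyme of the same path to UMP. *URA1* read 1862 and 2075 in psocs Δrad23 and 5118, 4224 and 5821 in psocs cells, a 2.55-fold difference (-1.35 ± 0.18, adjusted p = 0.000314), and it was called under every alternative tried. *FUI1*, the uridine permease, read 301 and 356 against 618, 1048 and 738 (-1.26 ± 0.28, adjusted p = 0.0268), without overlap, and was still called without psocs array 1 or 3 but not without psocs array 2 (-1.04, adjusted p = 0.138) or either psocs Δrad23 array. *URA4*, the dihydroorotase, was not called, with 1181 and 1279 in psocs Δrad23 and 1830, 1475 and 2111 in psocs cells (-0.54 ± 0.17, adjusted p = 0.140), nor was *FUR4*, the uracil permease, with 169 and 180 against 226, 265 and 255 (-0.51 ± 0.27, adjusted p = 0.411). The list as a whole was evenly divided: of 20 tested genes 10 were above 0 (58% of all tested genes) and 2 called lower (0.542%). The median was 0.00 (-0.07 without psocs array 1), with *URA5* at 0.03, *URA2* at -0.21 and *PPR1*, the activator of *URA1* and *URA4*, at 0.03.

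Lists of nitrogen, sulfur and amino acid genes had medians below 0, with few calls. Of 35 nitrogen-regulated genes 23 were tested, 3 were above 0 (58% of all tested genes) and the median was -0.36. Called lower were 2 (0.542% of all tested genes). Without psocs Δrad23 array 1 or 2 this median was -0.16 or -0.51. *DUR3*, a transporter of urea and polyamines, read 87.8 and 122 in psocs Δrad23 and 393, 342 and 303 in psocs cells (-1.73 ± 0.33, adjusted p = 0.0101). *AGP1*, a broad amino acid permease, read 516 and 658 against 1830, 1347 and 1545 (-1.42 ± 0.33, adjusted p = 0.0324). Both lay well apart between the strains. *DUR3* lost its call without psocs Δrad23 array 1 (adjusted p = 0.236) or 2 (adjusted p = 0.0569), and *AGP1* without any of the 5 arrays (adjusted p of 0.0629 to 0.426). *MEP2*, an ammonium permease, read 134 and 127 in psocs Δrad23 and 292, 248 and 235 in psocs cells, and *GAP1*, the general amino acid permease, 321 and 300.3 against 670, 493 and 422. Neither overlapped or was called (-0.98 ± 0.31, adjusted p = 0.138, and -0.74 ± 0.27, adjusted p = 0.209).

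Of 28 sulfur assimilation and methionine genes 19 were tested and 3 were above 0 (58% of all tested genes). The median was -0.26, or -0.21 and -0.39 without psocs Δrad23 array 1 or 2. Called lower was 1 gene (0.542% of all tested genes). *MET13*, a methylenetetrahydrofolate reductase that supplies methionine synthesis, was the call, with 644 and 774 in psocs Δrad23 and 1833, 1592 and 1994 in psocs cells (-1.35 ± 0.27, adjusted p = 0.0161). Without psocs Δrad23 array 1 or 2 it was not called (adjusted p of 0.238 and 0.0794). *SAM2*, an S-adenosylmethionine synthetase gene, had as large a change but a wide spread, 862 and 1479 against 3826, 3361 and 1956 (-1.38 ± 0.73, adjusted p = 0.414). Of 49 amino acid synthesis genes of the activator Gcn4, 48 were tested and none was called. Above 0 were 6 (58% of all tested genes), 20 were lower without overlap (12.7%), and the median was -0.36. Its size depended on the psocs Δrad23 array used, since the median was -0.15 without array 1 and -0.48 without array 2, while it stayed at -0.36 without psocs array 1. *LEU1* read 3855 and 7218 in psocs Δrad23 and 9047, 7586 and 10063 in psocs cells (-0.74 ± 0.29, adjusted p = 0.223), with array 2 close to the psocs arrays. *GCN4* itself was at 0.19 ± 0.20.

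*ZPS1*, a cell surface protein gene controlled by zinc, had the largest fall after *RAD23*, with 2100 and 3524 in psocs Δrad23 and 10672, 10112 and 8175 in psocs cells (-1.82 ± 0.44, adjusted p = 0.0455). The groups were far apart, but the call was lost in each fit without 1 of the 5 arrays (adjusted p of 0.0579 to 0.502). The other 8 tested zinc genes were not called, among them *ADH4* with 756 and 525 against 2906, 3183 and 1012 (-1.74 ± 0.58, adjusted p = 0.167). In central carbon metabolism, *MDH2*, the cytosolic malate dehydrogenase, read 716 and 560 in psocs Δrad23 and 2131, 1257 and 1976 in psocs cells (-1.46 ± 0.32, adjusted p = 0.0279), and *IDH2*, a subunit of mitochondrial isocitrate dehydrogenase, read 4842 and 6410 against 3744, 3265 and 3435 (0.68 ± 0.16, adjusted p = 0.0324). These 2 calls of opposite direction stood in a list of 16 tested genes of the citric acid and glyoxylate cycles. Its median was 0.27 (0.29 without psocs array 1), and over all tested genes 1.04% were called. *IDH2* was called in no fit without 1 of the 5 arrays (adjusted p of 0.0528 to 0.295) and *MDH2* in that without psocs array 2 (adjusted p = 0.0271).

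Some called genes belong to none of these groups. *HFD1*, an aldehyde dehydrogenase, read 970 and 875 in psocs Δrad23 and 426, 299.6 and 508 in psocs cells (1.20 ± 0.30, adjusted p = 0.0488). *YSC84*, an actin-binding protein gene, rose by 1.01 ± 0.24, *CMI8* by 1.03 ± 0.21, *ARP3*, of the Arp2/3 actin complex, by 0.59 ± 0.14, and *KTR3*, a mannosyltransferase gene measured with probes that also match other sequences, by 0.58 ± 0.14. The *KTR3* probe set without such a mark read 1148 and 939 in psocs Δrad23 and 651, 800 and 910 in psocs cells (difference of means 0.41). On the lower side were regulators of transcription. *CUP9*, the repressor of the peptide transporter *PTR2*, read 164 and 154 in psocs Δrad23 and 456, 285 and 348 in psocs cells (-1.16 ± 0.20, adjusted p = 0.00511). *DOT6*, a repressor of ribosome biogenesis genes, read 521 and 543 against 1179, 928 and 943 (-0.93 ± 0.18, adjusted p = 0.00991). *FLO8*, an activator of flocculation genes, fell by 1.11 ± 0.25, but its dimmer probe set overlapped between the strains (difference of means -0.30). The calls of *CUP9*, *DOT6* and *FLO8* were lost without either psocs Δrad23 array (adjusted p of 0.0630 to 0.426), that of *DOT6* also without psocs array 1 (adjusted p = 0.0507) and that of *FLO8* without psocs array 2 or 3. Neither strain's arrays overlapped the other's in any of these genes. The ribosome biogenesis list had no call in 96 tested genes and a median of -0.04, or -0.16 without psocs array 1, on which 10 of its members read low. *ARO5*, *MCH4* and *MRPL38* fell by 1.27 ± 0.24, 0.98 ± 0.23 and 0.95 ± 0.22. Of the 5 fits that leave out 1 array, *ARO5* was called in 4, *CMI8* in 2, *HFD1*, *YSC84*, *ARP3* and *MRPL38* in 1 each, and *KTR3* and *MCH4* in none. No call was made in 63 ribosomal protein genes (median 0.07, or 0.04 without psocs array 1), 39 respiration genes (0.12, or 0.11 without it), 23 sterol genes (0.25) or 21 genes of folding and degradation in the endoplasmic reticulum (0.06).

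**Figure D4:**
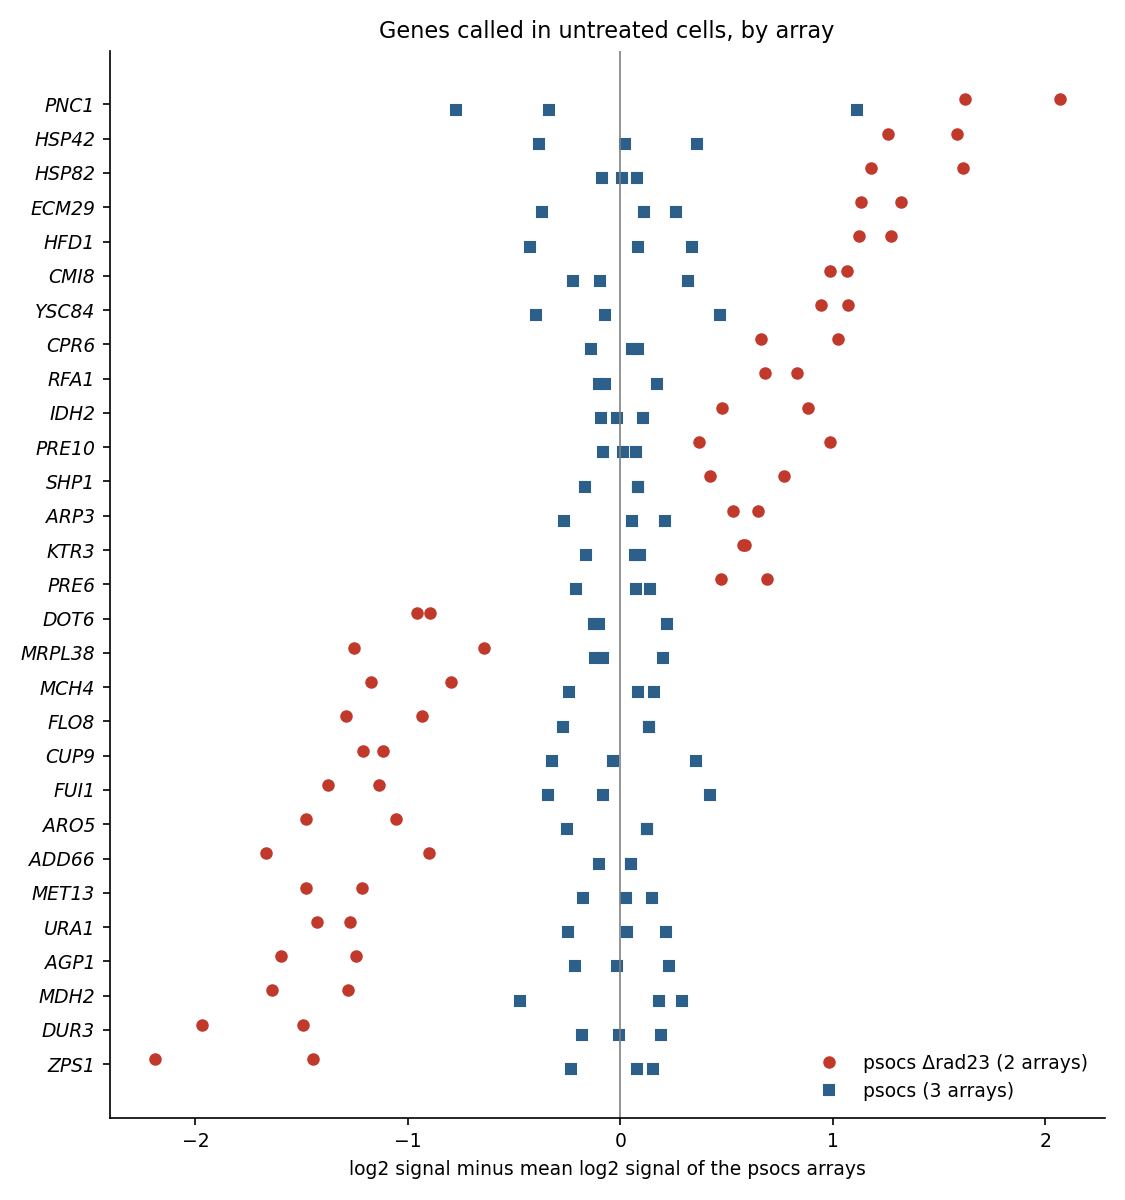
Log2 signal on each array minus the mean of the psocs arrays for the called genes named by rule (up to 15 per direction, *RAD23* left out), with psocs Δrad23 as red circles and psocs as blue squares. In every gene the 2 red circles lie on one side of the 3 blue squares, from *PNC1* (1.84) at the top to *ZPS1* (-1.82) at the bottom.

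The same deletion in cells with wild-type *RAD7* on the plasmid, pRAD7 Δrad23 (2 arrays) against pRAD7 (3 arrays), gave a comparison on other arrays, with 51 of 4242 genes called (1.2%), 27 higher (0.636%) and 24 lower (0.566%), or 56 and 26 in the values as deposited. Of the 43 genes called on the psocs plasmid besides *RAD23*, 40 had the same sign there, where 66% of all tested genes did. An unadjusted p under 0.05 in the same direction was reached by 37 of the 43, where 16.3% of all tested genes reached it in either direction, and 14 were called, 3 higher and 11 lower. Because spread was pooled over the series, each gene has the same SE in both comparisons. A call on psocs favours genes with a small SE, so the shares over all tested genes are no baseline for these p-value counts. *URA1* read 2606 and 1868 in pRAD7 Δrad23 and 5107, 4422 and 5210 in pRAD7 cells (-1.15 ± 0.18, adjusted p = 0.00110). *ZPS1* fell by 3.12 ± 0.44 there, *DUR3* by 2.30 ± 0.33, *MET13* by 1.92 ± 0.27 and *AGP1* by 1.84 ± 0.33. The 2 pRAD7 Δrad23 arrays were far apart in 3 of these genes. *DUR3* read 49.8 and 134 in pRAD7 Δrad23 and 469, 424 and 326 in pRAD7 cells, *MET13* 318 and 649 against 1725, 1328 and 2237, and *AGP1* 292 and 625 against 1827, 1038 and 1883. Without pRAD7 Δrad23 array 1, an alternative chosen after seeing the data, the differences of means were -1.58 for *DUR3*, -1.41 for *MET13*, -1.29 for *AGP1* and -3.33 for *ZPS1*. *CPR6* rose by 0.73 ± 0.15 and *RFA1* by 0.75 ± 0.18, with *NQM1*, a transaldolase paralog, as the third higher call shared by both plasmids (0.96 ± 0.21 on psocs and 1.34 ± 0.21 on pRAD7). *NQM1* was dim in untreated psocs Δrad23 and psocs cells, with mean log2 signals of 5.95 and 4.98. It passed the filter's cutoff of 6.53 on its mean over all arrays, those after UV included. The list medians on pRAD7 were 0.23 for the proteasome, with 28 of 34 genes above 0 (62.3% of all tested genes were) and no call, 0.23 for chaperones, 0.40 for Msn2/4 genes, -0.39 for amino acid synthesis, -0.32 for nitrogen and -0.63 for sulfur genes. pRAD7 Δrad23 array 1 also had 108 genes under 50% of the other array, 35 of them on chromosome IV, and *DUR3*, *MET13* and *AGP1* were the 3 of them among the genes called on psocs.

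The difference of the deletion's effect between the plasmids was tested directly, and 1 gene was called (0.0236%), where 142 genes (3.35%) had an unadjusted p under 0.05. The gene was *ADD66*. It read 256 and 227 in pRAD7 Δrad23 and 224, 222 and 160 in pRAD7 cells, so that its change was 0.27 ± 0.19 on that plasmid and -1.29 ± 0.19 on psocs, a difference of -1.56 ± 0.27 (adjusted p = 0.0396). The call was lost in 7 of the 10 fits that leave out 1 array, among them that without psocs array 1 (-1.53, adjusted p = 0.131). *HSP42* read 118 and 209 in pRAD7 Δrad23 and 192, 136 and 158 in pRAD7 cells, and its effects differed by 1.46 ± 0.42 (unadjusted p = 0.00226, adjusted p = 0.686). *ECM29* read 177 and 263 against 232, 176 and 167, a difference of 1.04 ± 0.30 (unadjusted p = 0.00215, adjusted p = 0.686), and *MRPL38*, a mitochondrial ribosomal protein gene, had a difference of -1.32 ± 0.31 (unadjusted p = 0.000290, adjusted p = 0.379). On pRAD7 the groups of *HSP42* and *ECM29* overlapped, while *MRPL38* and *ADD66* were higher in both pRAD7 Δrad23 arrays than in every pRAD7 array. The *ECM29* probe set without shared probes read 139 and 155 in pRAD7 Δrad23 and 121, 90.4 and 90.9 in pRAD7 cells, so that with it the deletion's differences were 0.94 on psocs and 0.56 on pRAD7, both upward. Over all *ECM29* probe sets the differences on pRAD7 ran from -0.93 to 0.56. *MAG1*, *CUP9* and *ZPS1* were the others of the 43 with an unadjusted p under 0.05, and none was called.

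**Figure D5:**
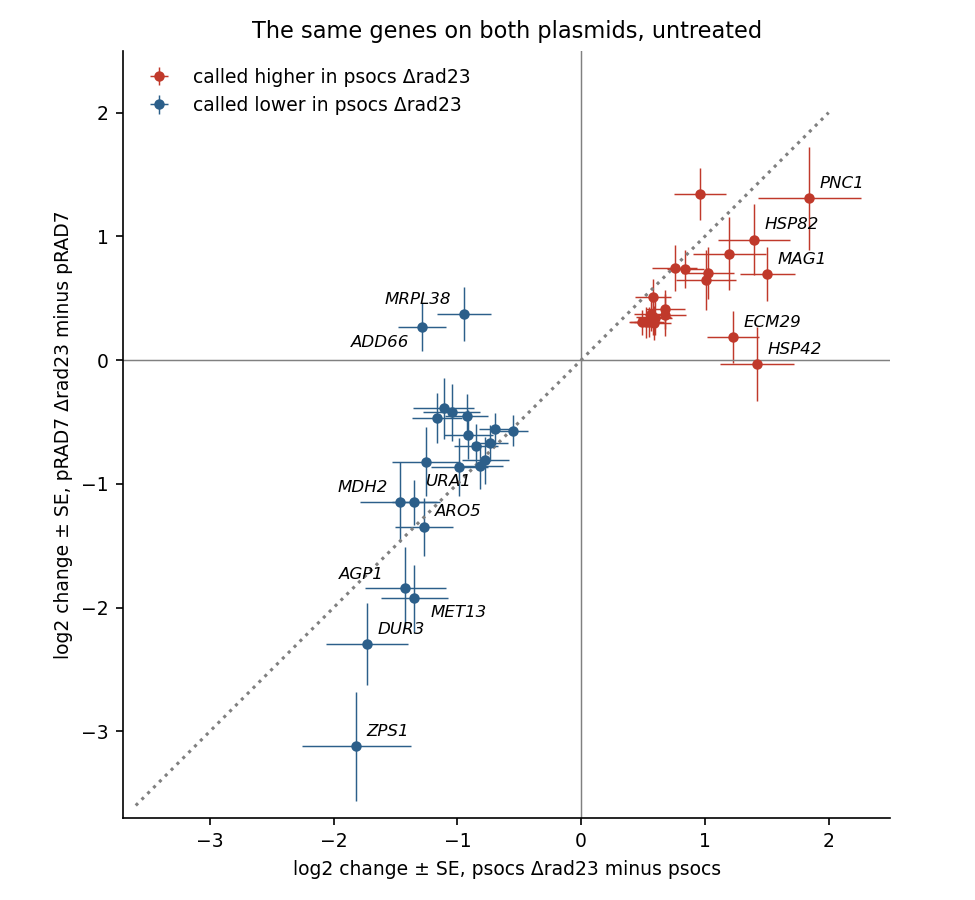
Log2 change (± SE) of the 43 genes called in psocs Δrad23 besides *RAD23*, on the psocs plasmid (horizontal) and on the pRAD7 plasmid (vertical), with the dotted line marking equal change. Of these genes 40 lie in the quadrants of equal sign, and *HSP42*, *MRPL38* and *ADD66* do not.

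After UV the same strains were measured on other arrays, with 6 genes called at 15 min (0.141%) and 1132 at 60 min (26.7%), 751 higher (17.7%) and 381 lower (8.98%), a split that was 291 and 956 when arrays were not centred. At 15 min 38 of the 43 genes had the sign of the untreated comparison, 19 did so with an unadjusted p under 0.05 (9.12% of all tested genes, in either direction), and *URA1* (-1.58 ± 0.18, adjusted p = 2.1e-05) and *MDH2* (-1.63 ± 0.32, adjusted p = 0.0415) were called in the same direction. At 60 min 33 had the same sign, 12 with an unadjusted p under 0.05 (39.7% of all tested genes), and 9 were called in the same direction, *URA1* with -0.56 ± 0.18 and *CPR6* with 1.11 ± 0.15 among them. The SE of each gene is again that of the untreated comparison, so these shares are no baseline either. *ECM29*, *PCL5*, a cyclin gene, and *RIB5*, the riboflavin synthase gene, were called in the opposite direction at 60 min, with *ECM29* at -1.93 ± 0.21 (adjusted p = 1.52e-06) and at -1.31 with the probe set without shared probes. The change of these effects with time was not tested. *ADD66* was at 0.23 ± 0.19 at 15 min and -0.10 ± 0.19 at 60 min.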

How the data were processed

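The authors summarised each Affymetrix Yeast S98 array with MAS 5.0 in Expression Console and deposited intensity values on a linear scale, whose trimmed mean is 500.3 to 500.5 on every array. For neither program is a version given in the sources used here. From the deposited intensities, values under the 10th percentile (8.50) were set to it, log2 was taken and arrays were centred on the median of their medians (6.81 to 7.28). Probe sets with 1 gene name were used, 1 per gene with the highest mean, and 5656 genes resulted, of which the lowest 25% by mean were left out as dim. The means of the 12 groups were fitted over all 30 arrays (R 4.3.3, limma 3.58.1) and moderated by eBayes, using its trend option, and p-values were adjusted by Benjamini-Hochberg over 4242 genes. Arrays have no count depth, and their number limits the precision (median SE of a log2 change 0.20). In a simulation of the untreated psocs comparison with 4242 genes, 67, 67 and 66 genes were set to differ 1.5, 2 and 4 times. The shares called were 46.3%, 82.1% and 100%, in that order, and false calls made up 8.43%. How well the simulated spread matches that of the real arrays, with the low genes of psocs array 1, was not tested. These shares therefore describe the simulation, and the false share among the real calls is not known.

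The members and gene lists were chosen with earlier results of these data known, and lists are described by counts and medians without a test. Named were strain and marker genes, genes the study discusses, up to 15 called genes per direction without overlap and with a higher group brighter than the median probe set, the 2 to 4 list members that differed most, genes called in the difference between plasmids, and the 3 neighbours on each side of *RAD23*. *PRE8*, *RPT6*, *RPN7*, *DSK2*, *HSC82*, *PBA1*, *RFA2*, *RFA3*, *FUR4*, *URA2*, *URA5*, *PPR1*, *GCN4*, *NQM1*, *PCL5* and *RIB5* were named after their values were seen. The alternatives were other filters, no floor, quantile normalization, no centring, no trend, smaller fits, a replicate block and leaving out each array.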

Additional observations from a re-analysis of the deposited data

Results flagged for a closer look

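*ADD66*, the proteasome assembly chaperone gene, differed in its response to the deletion between the plasmids, by -1.56 on the log2 scale (± 0.27 SE, limma adjusted p = 0.0396, the single call among 4242 genes). It was lower in both psocs Δrad23 arrays than in every psocs array and higher in both pRAD7 Δrad23 arrays than in every pRAD7 array. The call was lost in the values as deposited (adjusted p = 0.0892), in a fit to the 10 untreated arrays (adjusted p = 0.623) and in 7 of the 10 fits without 1 array, where the difference ran from -1.94 to -1.17. The largest loss was without psocs Δrad23 array 2 (-1.17, adjusted p = 0.392).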

How the results depend on the processing

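The 44 calls of the untreated psocs comparison became 69 without centring, 4 in a fit to the 10 untreated arrays, 9 in a fit to the 5 arrays compared, and 4 to 40 with 1 array left out. The 51 calls on pRAD7 became 82, 22 and 16, and 10 to 133. The 1 call of the difference between plasmids became 4 without the filter on dim genes, 0 without centring and in both smaller fits, and 0 to 1 with 1 array left out, and it was 0 without psocs array 1 and pRAD7 Δrad23 array 1 together, an alternative chosen after seeing the data. The 6 calls at 15 min became 14 without the filter, 3 with a stricter one and 1 in the fit to the arrays compared, with 2 to 8 when 1 array was left out. The 1132 calls at 60 min became 741 in that fit and 629 to 1042 with 1 array left out. Their split of 751 higher and 381 lower was 291 and 956 without centring and 433 and 532 with quantile normalization. With the replicate number as a block the counts were 51, 65, 1, 10 and 1177, but the labels do not say that equal numbers pair arrays. Same-numbered deviations correlated at 0.10 and 0.05. The deviations of the 2 psocs Δrad23 arrays mirror each other, so these values cannot decide whether the numbers pair. No called gene reversed. Named genes near 0 did reverse, with changes over the fits without 1 array of -0.014 to 0.14 for *RNR2*, -0.26 to 0.20 for *SML1*, -0.13 to 0.050 for *ACT1*, -0.22 to 0.26 for *HYP2*, -0.00985 to 0.31 for *TEL1*, -0.056 to 0.12 for *RFX1* and -0.55 to 0.26 for *GPG1*, and with quantile normalization *SML1* was at 0.019 and *HYP2* at -0.10. The cause was not tested.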

Other observations

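Some genes of uptake, membrane and cell wall lay apart between the untreated strains without passing the test. *HXT2*, a high-affinity glucose transporter gene, read 783 and 920.2 in psocs Δrad23 and 269, 359 and 299 in psocs cells (1.47 ± 0.58, limma adjusted p = 0.248), while the list of 10 tested hexose transporters had a median of -0.01 and no call. *HMG1*, an HMG-CoA reductase of sterol synthesis, read 2083 and 2091 in psocs Δrad23 and 1490, 977 and 1473 in psocs cells (0.70 ± 0.19, adjusted p = 0.0851), and in 12 of the 23 tested sterol genes both psocs Δrad23 arrays lay above every psocs array (17.8% of all tested genes). *CWP1*, a cell wall mannoprotein gene, read 2186 and 1690 against 1020, 449 and 998 (1.32 ± 0.41, adjusted p = 0.137). *ENB1*, a siderophore transporter gene, read 1688 and 1535 in psocs Δrad23 and 981, 585 and 948 in psocs cells (0.98 ± 0.29, adjusted p = 0.105). In *HXT2*, *HMG1*, *CWP1* and *ENB1* the groups did not overlap. All of them were higher, but the cell wall and iron lists went both ways and had no call. The 19 tested cell wall stress genes ran from -1.35 to 1.32 (median 0.17), with 4 higher and 2 lower without overlap. Of the 19 tested iron genes 10 were above 0 and 9 below (median 0.15), with 3 higher and 3 lower without overlap. Over all tested genes 17.8% were higher and 12.7% lower without overlap.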
